A study of Drosophila melanogaster with 18 samples.

Results

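The genes described here are 150 protein-coding Drosophila melanogaster genes that carry only a computed-gene symbol, CG followed by digits. In wild type embryos these genes had RNA that stayed near its 0-1h level at 1-2h and was low by 2-3h. They were taken from the 7529 genes listed in the TPM tables of all 3 time points (TPM is a length-corrected share of a library's RNA). Of 2154 such genes with a CG symbol, 998 had a wild type mean of at least 10 TPM at 0-1h and a wild type ratio of 1-2h to 0-1h between 0.8 and 1.25, each mean taken with 1 added. The 150 of these with the lowest wild type ratio of 2-3h to 1-2h are the members, and the other 848 serve as their nearest comparison. The members were thus chosen by wild type TPM at every time point, so their wild type time course is a description and is not tested.

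The samples were whole embryos of the orb2-delta-zz genotype, which lacks the zinc-binding ZZ domain of the RNA-binding protein ORB2, and wild type embryos, given in the labels as w1118, the pre-injected control. The flies were kept at 25ºC. The collections covered 0-1h, 1-2h and 2-3h from egg laying, and total RNA was sequenced after rRNA depletion. Each genotype had 3 libraries at a time point, which makes 18. The labels do not say whether orb2-delta-zz was 1 line or several, or that libraries came from separate collections, so p-values measure only the spread between these libraries.

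An egg is loaded with maternal mRNA, and the embryo develops on that supply until its own genome is switched on in the maternal-to-zygotic transition. Maternal mRNAs are removed in waves: maternally supplied factors such as the RNA-binding proteins Smaug, Brain tumor and Pumilio recruit deadenylases and decapping enzymes soon after egg activation, and a later wave needs products of the zygotic genome. ORB2 belongs to the CPEB family of proteins that bind 3′ UTRs and set the translation and stability of maternal mRNAs.

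Because the TPM of a library add up to a fixed total, a lower value at 2-3h is a smaller share of the listed RNA and not a measured loss per embryo. In whole embryos, fewer cells of a type and less RNA per cell cannot be told apart. The orb2 gene itself, in which only a domain was removed, had normalized counts of 2156, 2388 and 2133 in orb2-delta-zz embryos at 0-1h, against 2900, 2698 and 2916 in wild type embryos, and a gene-level value does not check the missing domain. The summed TPM of 25 early zygotic genes, out of 28 listed as markers of embryo age, was 91.6 to 127 in orb2-delta-zz and 114 to 173 in wild type at 0-1h, 805 to 944 and 342 to 955 at 1-2h, and 1876 to 2371 and 2250 to 2869 at 2-3h. Genes of egg chamber and adult female tissue were near absent: at 0-1h and 1-2h the tables list none of the 13 markers, yolk protein and chorion genes among them, and at 2-3h they list 2, which summed to 0.953 to 2.67 TPM in orb2-delta-zz and 0.683 to 1.38 TPM in wild type.

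Taken as a sum, the RNA of the 150 members was near level over the first collections and much lower at 2-3h. Their summed TPM was 10878 ± 213 at 0-1h, 10038 ± 101 at 1-2h and 3636 ± 39.6 at 2-3h in orb2-delta-zz embryos (SD, n = 3). In wild type embryos it was 10722 ± 418, 9709 ± 919 and 3983 ± 1369 (SD, n = 3). The individual 2-3h libraries held 3591, 3653 and 3665 TPM of member RNA in orb2-delta-zz, against 2637, 3940 and 5374 TPM in wild type. The 3 orb2-delta-zz libraries lay close together and inside the range of the wild type libraries, which were spread widely.

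**Figure D1:**
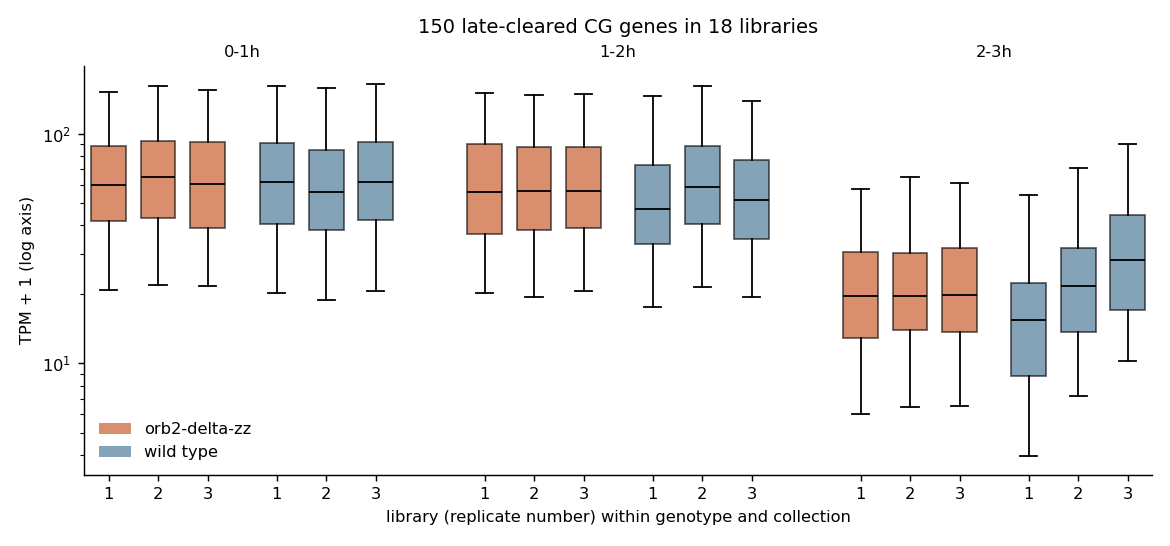
TPM + 1 of the 150 members (log axis) in each of the 18 libraries, orb2-delta-zz left of wild type within each time point; boxes span the 25th to 75th percentiles, the line is the median and whiskers reach the 5th and 95th percentiles. Member medians at 2-3h were 18.6, 18.7 and 18.8 TPM in the orb2-delta-zz libraries, against 14.5, 20.7 and 27.2 TPM in the wild type libraries.

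The wild type ratio of 2-3h to 1-2h, on which the members were selected, ran from 0.172 to 0.543 with a median of 0.435. The limit cut through a continuous run of genes. CG6479, CG10336 and CG8195 were just inside it at 0.541, 0.541 and 0.543, and CG12237, CG7806 and CG14621 just outside at 0.544, 0.546 and 0.549.

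The orb2-delta-zz libraries took no part in the choice, and there too nearly every member was low at 2-3h. All 3 orb2-delta-zz libraries of 2-3h were below all 3 of 1-2h for 149 of the 150 members, beside 50.9% of all 7529 genes and 430 of the 848 other CG genes. The ratio of 2-3h to 1-2h in orb2-delta-zz had a median of 0.367 over the members, against 0.867 over the other CG genes and 0.847 over all genes. It was 0.5 or less for 129 members, beside 23.4% of all genes and 36 of the 848. These changes between time points were not tested, because the authors normalized each time point's table separately.

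**Figure D2:**
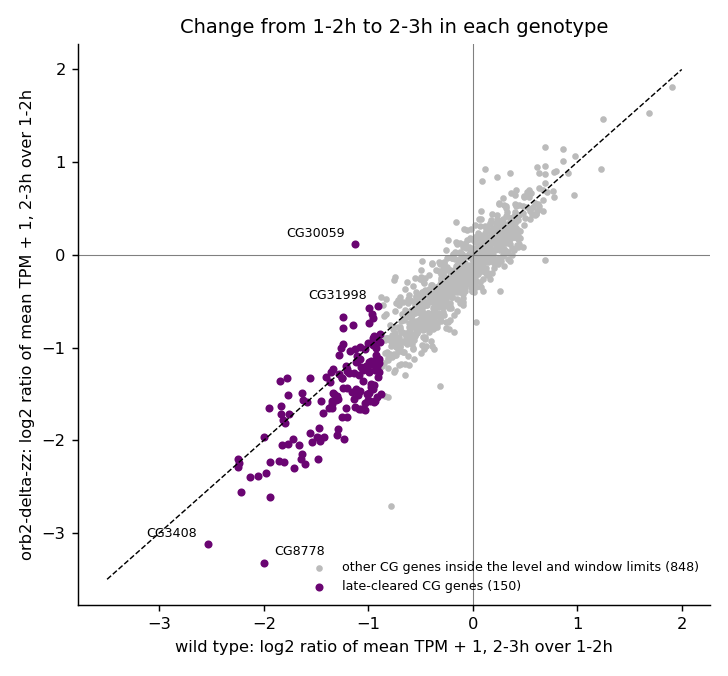
Log2 ratio of mean TPM + 1 at 2-3h over 1-2h in wild type (horizontal) and orb2-delta-zz (vertical) for the 150 members and the 848 other CG genes; the dashed line marks equal ratios. Members end on the right where the wild type rule cut them off, 149 of them lie under 0 on the vertical axis, and CG30059, near 0 TPM in orb2-delta-zz, is the one above it.

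The steady phase was also seen in orb2-delta-zz, and the members leaned downwards in both genotypes. In wild type, on which the window was set, the ratio of 1-2h to 0-1h had a member median of 0.894. It was under 1 there for 138 members, beside 4539 of all 7529 genes. In orb2-delta-zz the median was 0.926, with 119 members under 1, beside 4044 of all genes. There 136 of the 150 stayed between 0.8 and 1.25, beside 60.9% of all genes and 799 of the 848 other CG genes. Wild type values had placed all 150 and all 848 in that window. All 3 orb2-delta-zz libraries of 1-2h were below all 3 of 0-1h for 63 members, beside 38.1% of all genes and 128 of the 848. For 10 members they were all above, beside 27.9% of all genes and 288 of the 848. The share of members with a dip at 1-2h was thus near that of all genes and above that of the other CG genes, with no test of either difference.

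The steepest member in wild type was CG3408, on chromosome 3L at 9506818 to 9509583 (minus strand; all positions are from the BDGP6.54 annotation). Its TPM at 0-1h was 52.2, 55.3 and 53.1 in orb2-delta-zz and 54.9, 51.4 and 60.8 in wild type. At 1-2h it was still 43.5, 45.6 and 44.6 in orb2-delta-zz and 47.3, 51.6 and 40.8 in wild type. At 2-3h it was down to 3.88, 4.69 and 4.17 in orb2-delta-zz, against 1.94, 6.24 and 13.4 in wild type. Every library of both genotypes was low at 2-3h, and the wild type libraries enclosed the orb2-delta-zz ones.

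The lowest ratio in orb2-delta-zz belonged to CG8778, of the enoyl-CoA hydratase family, whose members act in fatty acid breakdown (chromosome 2R, 12651301 to 12652487, minus strand). Its TPM overlapped between genotypes at 0-1h, with 158, 165 and 169 in orb2-delta-zz and 168, 170 and 165 in wild type. At 1-2h it was 102, 109 and 101 in orb2-delta-zz, against 139, 149 and 125 in wild type. At 2-3h it was 10.1, 9.0 and 9.44 in orb2-delta-zz, against 17.8, 33.7 and 49.4 in wild type. The genotypes did not overlap at 1-2h or 2-3h, and the ratio of 2-3h to 1-2h was 0.100 in orb2-delta-zz and 0.250 in wild type. CG8778 thus had close levels in the first hour and lay below all wild type libraries afterwards.

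Other members with very low ratios in orb2-delta-zz were CG3408 at 0.115, CG13907 at 0.163, CG6424 at 0.170 and CG4404 at 0.189. Among the 8 members lowest in wild type, CG10561, CG14971 and CG1812 had nearly equal ratios in the genotypes, at 0.218, 0.205 and 0.212 in orb2-delta-zz and 0.211, 0.211 and 0.212 in wild type. CG6966, which RefSeq lists under the synonym dFEM1A, had 0.191 in orb2-delta-zz and 0.241 in wild type, and CG32109 had 0.256 and 0.250. Steepness in wild type and steepness in orb2-delta-zz therefore picked out partly the same genes, CG3408, CG6424 and CG4404 being in both short lists.

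CG4404 shows how even the orb2-delta-zz collections were. Its TPM at 2-3h was 16.4, 15.9 and 16.3 in orb2-delta-zz and 5.93, 15.7 and 29.9 in wild type, after 90.9, 92.0 and 86.7 in orb2-delta-zz and 83.1, 85.8 and 67.7 in wild type at 1-2h. The highest wild type library at 2-3h held more CG4404 RNA than every orb2-delta-zz library, and the lowest held less.

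The most abundant member was CG12567, at 369, 369 and 388 TPM in orb2-delta-zz and 349, 354 and 366 TPM in wild type at 0-1h. At 2-3h it still had 198, 184 and 163 TPM in orb2-delta-zz, against 92.5, 198 and 309 TPM in wild type, so an abundant member of this set remained an abundant transcript after its drop. CG40045, with the RefSeq synonym Ube2G1 after the mammalian ubiquitin-conjugating enzyme, had 321, 312 and 342 TPM in orb2-delta-zz and 317, 322 and 319 TPM in wild type at 0-1h. At 2-3h CG40045 stood at 112, 103 and 95.9 TPM in orb2-delta-zz and 79.5, 73.7 and 85.2 TPM in wild type. Its orb2-delta-zz libraries were all above the wild type ones at 2-3h, where the wild type libraries of this gene were close together.

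CG5746 and CG17163, 2 further abundant members, differed little between genotypes in the first hour. CG5746 had 216, 232 and 206 TPM in orb2-delta-zz and 231, 204 and 232 TPM in wild type at 0-1h, and 73.9, 77.4 and 77.9 TPM in orb2-delta-zz and 59.6, 88.7 and 131 TPM in wild type at 2-3h. CG17163 had 189, 197 and 198 TPM in orb2-delta-zz and 194, 169 and 177 TPM in wild type at 0-1h, and 32.7, 36.9 and 35.4 TPM in orb2-delta-zz and 24.0, 45.6 and 73.3 TPM in wild type at 2-3h. In both genes the genotypes overlapped at 0-1h and again at 2-3h.

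A few members held on better in orb2-delta-zz. After CG30059, whose ratio of 1.08 rests on the added 1 because it was near 0 throughout, the highest ratios were those of CG31998 at 0.683, CG11722 at 0.671, CG2247 at 0.641 and CG31886 at 0.630. CG31998, the 1 member on chromosome 4, had 84.7, 107 and 105 TPM at 1-2h and 55.0, 71.3 and 74.9 TPM at 2-3h in orb2-delta-zz. In wild type it had 93.9, 143 and 109 TPM at 1-2h and 67.3, 58.7 and 56.7 TPM at 2-3h. CG11722, named dNDUFAF4 in RefSeq after an assembly factor of mitochondrial complex I, had 17.4, 14.3 and 18.5 TPM in orb2-delta-zz and 14.9, 9.67 and 8.57 TPM in wild type at 2-3h. In these 2 genes the genotypes overlapped at 2-3h by a single library.

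The wild type 2-3h libraries differed from each other over the members as a set. Replicate 1 was the lowest of the 3 for 131 of the 150 members and replicate 3 the highest for 139, with median deviations of -0.54, 0.06 and 0.49 for replicates 1, 2 and 3 on the log2(TPM + 1) scale. The median SD between wild type libraries at 2-3h was 0.519 over the members, 0.171 over the other CG genes and 0.227 over all genes. Between orb2-delta-zz libraries it was 0.0871, 0.0987 and 0.114 for the same gene sets. The wild type libraries thus disagreed more on the members than on the other CG genes, while the orb2-delta-zz libraries lay close together on both. Beside this, the 7 listed late embryo markers, out of 10, summed to 65.9 to 107 TPM in the orb2-delta-zz libraries of 2-3h. The wild type replicates 1, 2 and 3 at 2-3h had summed early zygotic marker TPM of 2250, 2869 and 2716, and summed late embryo marker TPM of 98.9, 66.6 and 62.8. At 1-2h, wild type replicate 2 was the highest of the 3 for 128 members, beside 4568 of all 7529 genes. The median SD between wild type libraries there was 0.173 over the members and 0.200 over all genes. Replicate 2 had summed early zygotic marker TPM of 342, against 781 and 955 in replicates 1 and 3. Its 5 listed late embryo markers summed to 55.4 TPM, against 26.7 and 19.0. The part of these marker values in the member levels was not tested.

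**Figure D3:**
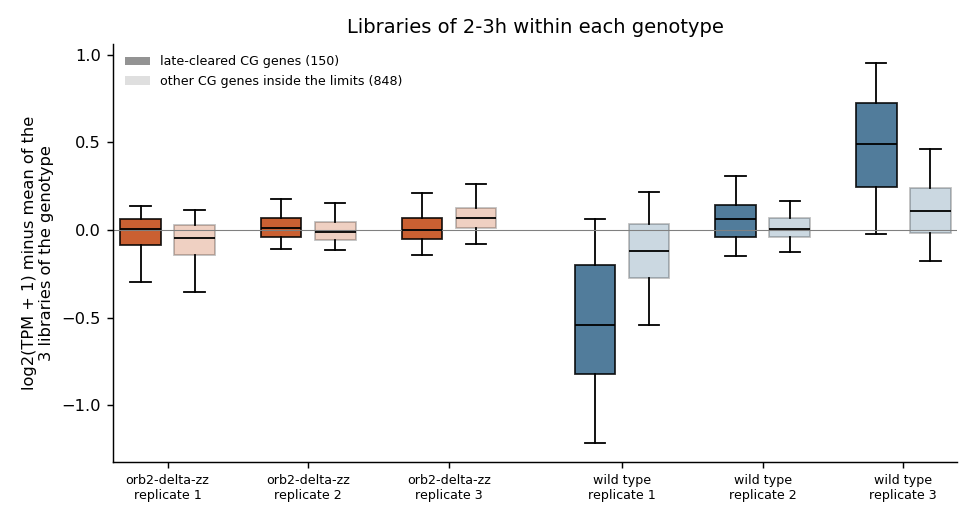
Deviation of each 2-3h library from the mean of its genotype, in log2(TPM + 1), for the 150 members (dark boxes) and the 848 other CG genes (pale boxes); boxes span the 25th to 75th percentiles, the line is the median and whiskers reach the 5th and 95th percentiles. Member medians were near 0 in the 3 orb2-delta-zz libraries and at -0.54, 0.06 and 0.49 in the wild type libraries.

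This spread set how the genotypes compared in the late drop. The log2 ratio of 2-3h to 1-2h had a member median of -1.45 in orb2-delta-zz and -1.20 in wild type. The difference per gene, orb2-delta-zz minus wild type, had a median of -0.21, with 108 members lower in orb2-delta-zz and 42 higher, beside a median of -0.11 over the other CG genes and -0.04 over all genes. Leaving out wild type 2-3h replicate 1 moved the median difference to -0.41 with 123 members lower. Leaving out wild type 2-3h replicate 3 turned it to 0.09 with 96 members higher. Leaving out wild type 1-2h replicate 1 or 2 gave -0.14 or -0.30. The direction of the genotype difference in the drop therefore depended on 1 wild type library, and the rule had used the wild type side of it.

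At 0-1h the genotypes were compared with adjusted p-values. The members were not ranked on the wild type 0-1h values, but these did enter the choice, through the floor of 10 TPM and as the base of the window, so the tests are not fully independent of it. By limma on log2(normalized count + 1), with Benjamini-Hochberg adjustment over all 7559 genes tested at 0-1h and a threshold of 0.05, 28 of the 150 members (18.7%) were called, 13 higher and 15 lower in orb2-delta-zz, beside 21.3% of all genes tested (11.2% higher and 10.1% lower). On TPM in place of normalized counts 23 were called, 15 higher and 8 lower, beside 16.7% of all genes tested on TPM. All 150 members passed the filter of a mean normalized count of 10. CG30059 passed it through wild type alone, and its call, counted among the 15 lower, is not read as a result. Of the other CG genes 196 of 848 were called. The member median was -0.01 on the log2 scale and that of all genes tested -0.01. Most called members changed little: the median size was 0.31, and 4 of the 28 changed by 1.5-fold or more, beside 33.0% of the 1610 called genes. The genotypes' libraries did not overlap for 58 members, beside 38.9% of all genes tested. The share of members called was near the background.

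The RNA of CG30059 was close to absent in orb2-delta-zz (chromosome 2R, 13412769 to 13414620, minus strand). Its normalized counts at 0-1h were 0, 3.79 and 0 in orb2-delta-zz, against 673, 622 and 724 in wild type. At 1-2h the values were 0, 0 and 0 in orb2-delta-zz, against 662, 835 and 876 in wild type, and at 2-3h 0, 10.6 and 0, against 297, 355 and 402. The fitted log2 difference rests on the added count, so no fold is given, and since the gene passed the filter on low values through wild type alone, no p is given. CG30059 overlaps BaraA1 on the opposite strand, and no source here says that strand was used in the authors' counting, so reads of the 2 genes may not be told apart.

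The largest rise at 0-1h was that of CG13101 (chromosome 2L, 8977834 to 8984872, minus strand). Its normalized counts were 2089, 2244 and 2657 in orb2-delta-zz, against 686, 700 and 725 in wild type, a log2 difference of 1.72 ± 0.0858 (SE; limma adjusted p = 9.26e-07). The genotypes stayed apart at every time point: 2076, 2068 and 2201 in orb2-delta-zz, against 533, 707 and 627 in wild type at 1-2h, and 416, 503 and 410, against 108, 175 and 328 at 2-3h. CG13101 was low at 2-3h in both genotypes, so in orb2-delta-zz it started higher, ended higher and still had the late drop of the set, with a ratio of 2-3h to 1-2h of 0.217 in orb2-delta-zz and 0.358 in wild type. It overlaps CG18662 on the opposite strand.

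CG3842, of the short-chain dehydrogenase family, rose to normalized counts of 2478, 2524 and 2773 in orb2-delta-zz at 0-1h, against 1583, 1504 and 1562 in wild type (log2 difference 0.74 ± 0.0565 SE; limma adjusted p = 1.63e-05). At 2-3h it had 750, 667 and 647 in orb2-delta-zz and 152, 553 and 928 in wild type, so the genotypes overlapped by then. CG7460, of the polyamine oxidase family, which breaks down spermine and spermidine, had 1064, 1019 and 1026 in orb2-delta-zz, against 709, 776 and 722 in wild type at 0-1h (0.49 ± 0.0668 SE; adjusted p = 0.000676). Both genes thus rose by less than CG13101 and without overlap between the genotypes.

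Smaller rises at 0-1h were those of CG7328, CG9132 and CG10962. CG9132 had normalized counts of 2899, 2811 and 2933 in orb2-delta-zz, against 2070, 2217 and 2270 in wild type, a log2 difference of 0.40 (limma adjusted p = 0.000408). CG7328 had 754, 785 and 762 in orb2-delta-zz, against 547, 614 and 574 in wild type, a difference of 0.41 (adjusted p = 0.00417). CG10962 had 415, 481 and 488 in orb2-delta-zz, against 387, 361 and 326 in wild type, and its difference of 0.37 (adjusted p = 0.0372) is the weakest of the 6, with adjusted p between 0.0567 and 0.115 when wild type replicate 2 or 3 or orb2-delta-zz replicate 2 or 3 of 0-1h was left out. CG43783, which lies at the orb2 locus and overlaps orb2 on the same strand, rose as well, with 4779, 4694 and 4106 in orb2-delta-zz, against 3747, 3308 and 3823 in wild type (0.32; adjusted p = 0.0118, and 0.0519 on TPM). Its reads and those of orb2 may have been split between the genes by the counting, and orb2 itself fell (log2 difference -0.35; adjusted p = 0.00233).

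**Figure D4:**
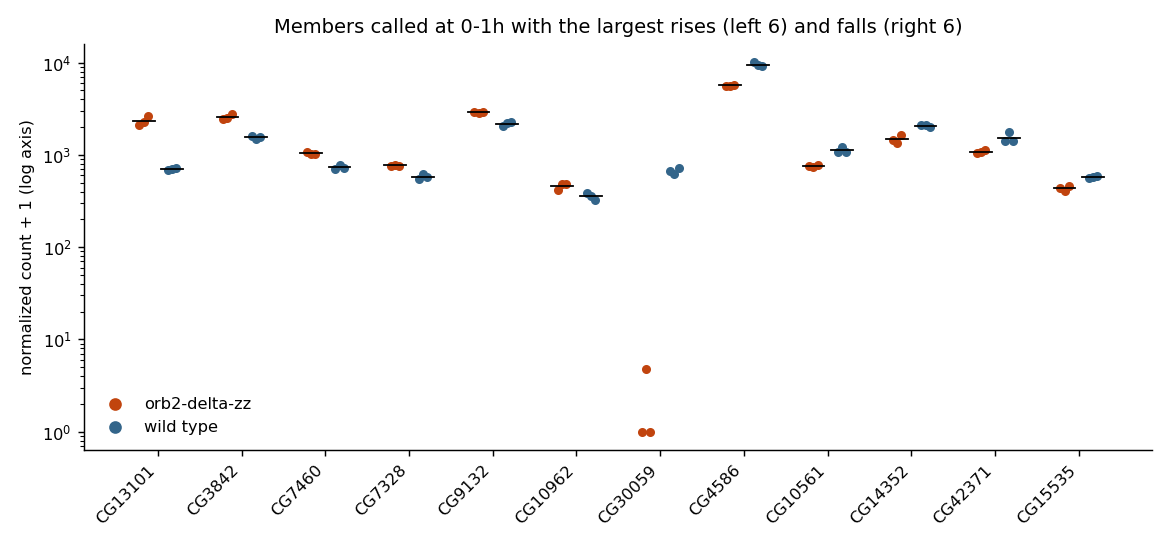
Normalized count + 1 (log axis) at 0-1h in each library for the 6 called members with the largest rises (left) and the 6 with the largest falls (right), orb2-delta-zz left of wild type; points are libraries and bars are means, with none drawn for CG30059. CG30059, which passed the filter through wild type alone, drops to 0, 3.79 and 0 in orb2-delta-zz. The other 11 genes differ by at most the 1.72 log2 units of CG13101.

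Among the members that fell, CG4586 had the largest change after CG30059 (chromosome X, 6969918 to 6972265, plus strand). It belongs to the acyl-CoA oxidases, which carry out the first step of peroxisomal fatty acid breakdown. Its normalized counts at 0-1h were 5622, 5565 and 5788 in orb2-delta-zz, against 10051, 9331 and 9212 in wild type (log2 difference -0.75 ± 0.0446 SE; limma adjusted p = 3.26e-06). Counts at 1-2h were 6580, 6038 and 5840 in orb2-delta-zz, against 10778, 10047 and 9859 in wild type, and at 2-3h 2493, 2056 and 2004, against 2504, 5130 and 6747. CG4586 was lower in every orb2-delta-zz library than in any wild type library at each of the 3 time points.

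CG10561 fell to 752, 733 and 779 in orb2-delta-zz at 0-1h, against 1075, 1205 and 1083 in wild type (log2 difference -0.57; limma adjusted p = 0.000393). CG14352 had 1446, 1360 and 1627 in orb2-delta-zz, against 2100, 2115 and 2007 in wild type (-0.49; adjusted p = 0.000849). CG42371 had 1050, 1068 and 1142 in orb2-delta-zz, against 1423, 1751 and 1417 in wild type (-0.49; adjusted p = 0.00351), and CG15535 had 438, 406 and 461, against 556, 573 and 592 (-0.40; adjusted p = 0.00897). By 2-3h the genotypes overlapped for CG10561, CG14352 and CG15535, while CG42371 had 814, 770 and 609 in orb2-delta-zz, against 947, 876 and 847 in wild type. CG7384, an abundant member, fell with 8424, 9100 and 9327 in orb2-delta-zz, against 10964, 11462 and 10450 in wild type (-0.29; adjusted p = 0.0035).

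At 1-2h the wild type values had taken part in the choice, so no p-value is given for single members. Of the 150, 12 were called, 6 higher and 6 lower, beside 7.37% of all genes tested (3.52% higher and 3.85% lower), and 53 did not overlap between genotypes, beside 32.8%; nothing is read from these counts. Of the 28 members called at 0-1h, 9 (32.1%) were also called at 1-2h, beside 29.6% of all genes called at 0-1h. The largest positive differences without overlap were those of CG13101 at 1.77, CG3842 at 0.79, CG7460 at 0.49, CG7328 at 0.47 and CG10962 at 0.46 on the log2 scale. The largest negative ones after CG30059 were CG4586 at -0.73, CG42371 at -0.57, CG15535 at -0.55 and CG8778 at -0.49. All but CG8778 were among the members named for their change at 0-1h.

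At 2-3h 1 member was called, CG30059, lower in orb2-delta-zz, beside 3.28% of all genes tested (1.73% lower). CG30059 passed the filter through wild type alone, and wild type 2-3h values helped to choose it, so nothing is read from its call. The genotypes did not overlap for 15 of the 150, beside 23.5%. Without wild type 2-3h replicate 1, 40 members were called, 37 of them lower, beside 18.5% of all genes tested. Without wild type replicate 3, 2 were called, beside 3.00%. The median log2 difference of the members was -0.10 with all libraries, -0.37 without wild type replicate 1 and 0.15 without replicate 3, and that of all genes tested was -9.42e-05. The 2-3h counts and their direction thus rested on single wild type libraries.

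The largest positive differences without overlap at 2-3h, after CG13101, were found in 4 other members. CG15743, of the inositol monophosphatase family, had normalized counts of 951, 766 and 665 in orb2-delta-zz, against 393, 469 and 560 in wild type, a log2 difference of 0.74. CG12279 had 62.3, 58.2 and 68.2 in orb2-delta-zz, against 41.5, 33.4 and 43.8 in wild type, a difference of 0.66. CG4617 had 783, 745 and 686, against 448, 489 and 600, and CG10874 had 1217, 1206 and 1207, against 846, 808 and 953, differences of 0.53 and 0.48. These 4 were picked for the lack of overlap between the genotypes, so their order is a description.

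In the other direction at 2-3h, CG8778 had normalized counts of 285, 242 and 238 in orb2-delta-zz, against 487, 939 and 1367 in wild type, a log2 difference of -1.75, and CG4586 differed by -1.03. CG1764 had 221, 184 and 176, against 279, 276 and 408 (-0.71). CG9171, with the RefSeq synonym dibeta3GnT2 after the glycosyltransferases that extend sugar chains, had 1103, 925 and 872, against 1217, 1662 and 1910 (-0.71). CG15743 and CG1764 follow each other among the members on chromosome X, 6731 bases apart on opposite strands. Other genes between them were not looked for. They differed between genotypes in opposite directions, and both were picked for the size of their difference.

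The name uncharacterised holds only in part, since RefSeq lists a functional synonym for at least 15 of the 150 members. These 15 were picked, and no full count over the members was made. In the ubiquitin system these are CG40045 (Ube2G1), CG6966 (dFEM1A), whose mammalian relatives bring substrates to cullin ubiquitin ligases, and CG2247 (FBXL5), after a mammalian F-box protein. Mean TPM of CG6966 in orb2-delta-zz was 107 at 0-1h, 103 at 1-2h and 18.9 at 2-3h. For CG2247 it was 134, 122 and 77.6, the slowest of the 3. CG2247 was also lower in orb2-delta-zz at 0-1h, with normalized counts of 9664, 10156 and 9815, against 11045, 10916 and 10893 in wild type (log2 difference -0.15; limma adjusted p = 0.0215), a call lost in 6 of 12 alternatives, with adjusted p of 0.0213 to 0.245 over all 12.

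The synonyms also name solute carriers and membrane traffic genes. The solute carriers CG7458 (Slc22a15), CG10444 (dSLC5A3) and CG2187 (dSLC5A6), which move small molecules across membranes, had ratios of 2-3h to 1-2h of 0.196, 0.373 and 0.203 in orb2-delta-zz and 0.253, 0.508 and 0.304 in wild type. In membrane traffic, CG9175 (Sec12, which starts vesicle budding at the endoplasmic reticulum) had 0.209 in orb2-delta-zz and 0.329 in wild type, and CG4953 (TRAPPC13, of a vesicle tethering complex) had 0.452 and 0.511. CG9175 fell at 0-1h, with normalized counts of 1797, 1815 and 1727 in orb2-delta-zz, against 2134, 2179 and 1991 in wild type (log2 difference -0.24; limma adjusted p = 0.0111, and 0.0722 on TPM).

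The remaining synonyms cover mitochondria, chromatin and enzymes. CG6878 (Romo1, a mitochondrial inner membrane protein in mammals) had a ratio in orb2-delta-zz of 0.338, CG7379 (Ing1, of the family of chromatin-binding ING proteins) 0.537, CG7115 (PP2C, a protein phosphatase) 0.390, CG10638 (AKR, an aldo-keto reductase) 0.425 and CG31637 (d6ST1, a sulfotransferase) 0.502. Of the 15 members picked for a synonym, 4 were called at 0-1h, lower in orb2-delta-zz, beside 21.3% of all genes tested (10.1% lower). They were CG2247, CG9175, CG10444 and CG31637. The calls of CG10444 and CG31637 were lost in 8 and 5 of 12 alternatives.

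Maternal transcripts with known clearance give a scale for these time courses. Of 14 such genes, 8 had a similar course in orb2-delta-zz: stg, twe, bcd, gcl, CycA, CycB, plu and smg. Their ratio there was at least 0.8 from 0-1h to 1-2h and under 0.6 from 1-2h to 2-3h. The limit of 0.6 is wider than the 0.543 that bounded the members in wild type. In wild type, plu at 0.677 and CycA at 0.587 were above the members' limit. Smaug mRNA (smg) averaged 667, 684 and 193 TPM over the 3 time points in orb2-delta-zz and 669, 618 and 273 TPM in wild type. The other 6, Hsp83, osk, pgc, cort, gnu and png, were already down at 1-2h. Mean TPM of osk, which specifies the germ plasm, was 1027, 487 and 37.1 in orb2-delta-zz and 970, 523 and 43.0 in wild type. Members could not have the course of these 6 in wild type, since the rule set the window from 0-1h to 1-2h.

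A list of 22 genes of mRNA clearance and its regulators, of which 20 could be matched, was read in the same fits. At 0-1h 3 of the 20 were called, beside 21.3% of all genes tested, each lower in orb2-delta-zz. These were orb2, which is the edited gene itself, bol and brat. The difference was -0.87 (limma adjusted p = 0.00476) for bol, which encodes an RNA-binding protein of the DAZ family. For brat, which encodes Brain tumor, it was -0.19 (limma adjusted p = 0.0438). On TPM the 3 called were orb2, bol and me31B, with me31B higher in orb2-delta-zz, beside 16.7% of all genes tested on TPM. The call of brat was lost in 8 of 12 alternatives, the replicate block among them, with adjusted p of 0.0143 to 0.241 over all 12. At 1-2h bol was called, at -0.86 (adjusted p = 0.0286), 1 of 20 beside 7.37% of all genes tested. With the replicate number as a block, that call was lost (limma adjusted p = 0.0613). At 2-3h limma called 0 of the 20 with a lowest adjusted p of 0.122, and 1 had an unadjusted p under 0.05. Without wild type 2-3h replicate 1, 7 of the 20 were called there, each lower in orb2-delta-zz, smg, pum and orb2 among them, beside 18.5% of all genes tested. For smg, the difference at 0-1h was -0.04 ± 0.0707 (SE; adjusted p = 0.74).

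Gene structure took no part in the rule. The members' annotated 3′ UTR had a median length of 391.5 nt, against 207.5 nt in the other CG genes, with wide overlap between the sets, and 284.5 nt in the 7240 protein-coding genes listed in all tables. The 5′ UTR had a median of 215 nt, against 131 nt and 160 nt. Coding length differed less, with a median of 1276.5 nt, against 1149 nt and 1425 nt. The median UTRs of the members were thus longer than in both comparison sets, and their median coding length was between the 2 sets; no test was run on these.

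Across the 998 CG genes inside the limits, a longer 3′ UTR went with a lower ratio of 2-3h to 1-2h in both genotypes. Spearman's rho in orb2-delta-zz was -0.27 for 3′ UTR length and -0.09 for coding length. In wild type it was -0.25 and -0.06. For transcript length rho was -0.17 in orb2-delta-zz and -0.14 in wild type, and for exon number -0.11 and -0.09. For the wild type mean TPM at 0-1h it was -0.15 and -0.18, so the starting level also went with the ratio. This is a description across genes of shared libraries. The genes were put into 4 groups of nearly equal size by rising 3′ UTR length, which held 15, 30, 53 and 52 members and had median lengths of 71, 158, 358 and 868 nt. The median log2 ratio in orb2-delta-zz over these groups was -0.12, -0.27, -0.40 and -0.57, and in wild type -0.03, -0.17, -0.28 and -0.36. Short 3′ UTRs were thus scarce among the members, and the 2 longer groups held similar numbers of them.

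**Figure D5:**
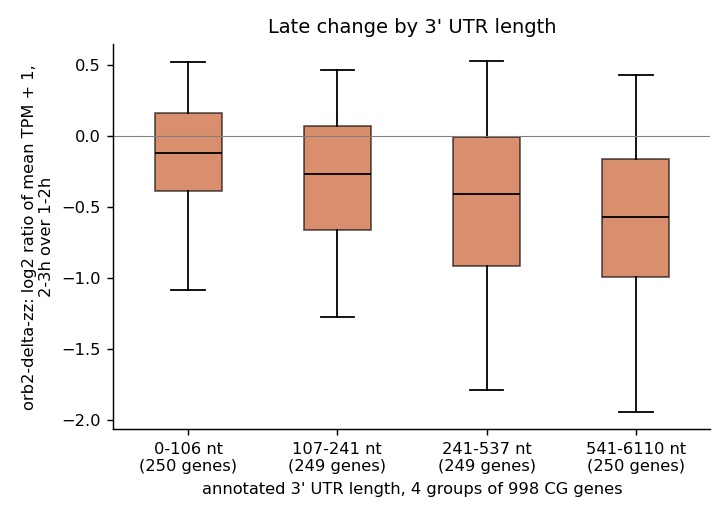
Log2 ratio of mean TPM + 1 at 2-3h over 1-2h in orb2-delta-zz for the 998 CG genes inside the limits, in 4 groups of annotated 3′ UTR length in nt (0 means none annotated); boxes span the 25th to 75th percentiles, the line is the median and whiskers reach the 5th and 95th percentiles. The median runs from -0.12 in the shortest group to -0.57 in the longest. Wild type, not drawn, had medians of -0.03 and -0.36 in these 2 groups.

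By position, 34 members (22.7%) lay on chromosome X, against 18.6% of the other CG genes and 17.6% of all coding genes listed, and 20 (13.3%) on chromosome arm 2R, against 19.8% and 20.2%. Single-exon genes made up 16 members, 10.7%, against 9.91% and 9.74%. A protein-coding gene overlapped 66 members (44.0%) on the opposite strand, against 44.1% and 39.5%, so the members were not set apart by such overlaps. There were 12 pairs of neighbouring members with less than 10000 bases between them, such as CG11474 and CG2921, 94 bases apart on 2R, and CG17163 and CG17162, 2250 bases apart on X.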

How the data were processed

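RNA libraries from orb2-delta-zz and wild type embryos were processed by the authors with Trim Galore 0.6.5, Salmon 1.9.1 and DESeq2 1.42.1, per the submitters' processing notes; genome build, annotation and use of strand: not given in the sources used here. Deposited by the authors were, per time point, normalized counts (a signal scaled within that time point) and TPM. Read depth per library is unknown, so no counting interval is given. All 18 libraries entered, with 0 value columns unmapped. No pair of libraries held identical values.

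From these values, group means, ratios of mean TPM + 1 and library orders were computed with Python 3.11.15 (pandas 2.3.3). limma 3.58.1 (R 4.3.3), two-sided and with a mean-variance trend, set the genotypes against each other at single time points. It used log2(normalized count + 1), kept genes averaging at least 10, and applied Benjamini-Hochberg adjustment over all genes tested. Fold changes are on that log2 scale and understate changes of low genes. The test was run on simulated data first. Where libraries of a genotype are left out, a pooled spread stands in for the smaller group.

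The members and all lists were chosen with earlier results of these data known. Named members are those with the extreme ratios, the highest TPM, and, among members without overlap between genotypes, the largest differences (called ones at 0-1h); CG43783, CG7384 at 0-1h, CG42371 at 2-3h and the RefSeq synonyms were singled out after their values were seen. Symbols, positions and gene structure came from the Ensembl annotation of BDGP6.54, and synonyms from a RefSeq gene table, in which all 150 members were matched. No sequences are printed.

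Replicate numbers are shared between genotypes. At 1-2h, same-numbered libraries deviated together (correlations of 0.13 to 0.17 across genes, all above those of other pairs). The labels do not say that the numbers pair libraries. With 3 libraries per genotype these correlations cannot settle it, so the replicate block is given as an alternative.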

Additional observations from a re-analysis of the deposited data

Results flagged for a closer look

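One result was singled out because the genotypes were ordered one way early and the opposite way late. CG8195, the member at the limit of the rule, had normalized counts at 0-1h of 2221, 2210 and 2406 in orb2-delta-zz, against 2049, 2066 and 2032 in wild type, a log2 difference of 0.152 with every orb2-delta-zz library higher. At 2-3h it had 730, 768 and 667 in orb2-delta-zz, against 860, 1206 and 1202 in wild type, a log2 difference of -0.578 with every orb2-delta-zz library lower. Neither difference was called, and the difference between the time points was not tested.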

How the results depend on the processing

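The 28 members called at 0-1h, beside 21.3% of all genes tested, changed with the fit, and so did the share of all genes. With 1 library left out in turn they became 20 to 34, beside 14.5% to 21.4% of all genes. They became 20 with the replicate block, beside 15.3%, and 30 (16 higher, 14 lower) with TMM rescaling, beside 21.6%. On TPM they became 23, beside 16.7%, where the split turned to 15 higher and 8 lower from 13 and 15. The 12 called at 1-2h, beside 7.37% of all genes tested, became 8 with the replicate block, beside 6.11%. With a library left out they became 4 to 22, beside 2.5% to 15.5%, both highest without wild type replicate 2. The 1 called at 2-3h, beside 3.28% of all genes tested, became 0 with the replicate block, beside 0.61%. It became 2 with members chosen on medians. With a library left out the count was 0 to 40, beside 0.863% to 18.5% of all genes. Over all genes, the 1610, 597 and 296 called at 0-1h, 1-2h and 2-3h became 1160, 495 and 55 with the replicate block; without wild type 1-2h replicate 2 there were 1257, and without wild type 2-3h replicate 1 there were 1655. Same-numbered libraries correlated at -0.06 to 0.02 at 0-1h and -0.33 to -0.13 at 2-3h, and other pairs at 2-3h had 0.02 to 0.18. Each library of 1-2h deviated most like its own number. Whether the numbers pair libraries at any time point was not tested. Of 21 genes with a named change at 0-1h, 5 lost their call with the replicate block: CG10962, CG2247, CG10444, CG31637 and brat (limma adjusted p of 0.0825, 0.106, 0.139, 0.0842 and 0.117).

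The median log2 ratio of 2-3h to 1-2h in orb2-delta-zz, -1.45, was -1.42 on normalized counts, -1.33 with members chosen on medians, -1.26 with a pseudocount of 5 and -1.47 to -1.43 with a library left out. The count of 149 members lower at 2-3h was 148 or 149 under its alternatives. The rule itself chose 86 of the same 150 genes on normalized counts, 138 with a pseudocount of 5, 127 on medians and 103 to 145 with a wild type library left out. The 4 calls among the clearance genes became 2 with the replicate block, which left bol and the edited gene orb2 at 0-1h. On TPM they became 3, all at 0-1h, with bol and orb2 lower in orb2-delta-zz and me31B higher. With a library left out they became 3 to 11, and the 11 hold 7 at 2-3h, without wild type replicate 1. None of the 21 changes at 0-1h turned direction under the 12 alternatives each. The alternatives for the clearance genes and for 9 of the 21 genes were chosen after seeing the data. The causes were not tested.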
